A study of Mus musculus with 4 samples.

Results

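The AMP deaminases and the other enzymes of the purine nucleotide cycle were examined in the chromatin-bound RNA of C2C12 myotubes, the fused muscle cells formed by a mouse myoblast line. The genes are Ampd1, Ampd2, Ampd3, Adsl, Adss, Adssl1, Ak1 and Nt5e, which were taken by symbol from the count table. All 8 were found among 23282 features, and all 8 were abundant enough to be among the 13285 features tested. They were chosen with earlier results of these libraries in view, selected on the log2 fold change of dexamethasone against vehicle, which is large in Ampd3. The values of that contrast are therefore given for them as a description.

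All myotubes had been deprived of steroids. One group then received vehicle and the other 1 µM dexamethasone, a synthetic glucocorticoid, for 2 h, and RNA held on the chromatin of isolated nuclei was sequenced from 2 libraries per group. C2C12 is a single line, labelled female, and whether the libraries of a group came from separate cultures is not stated, so the spread between them may be technical.

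The purine nucleotide cycle converts AMP to IMP and back. AMP deaminase removes the amino group of AMP as ammonia, adenylosuccinate synthase joins IMP to aspartate, and adenylosuccinate lyase splits the product into AMP and fumarate. In working muscle the cycle removes AMP that adenylate kinase forms from ADP, which keeps the ATP to ADP ratio high, and it feeds fumarate to mitochondria. Outside the cell, the nucleotidase encoded by Nt5e (CD73) turns AMP into adenosine.

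The promoters of Ampd3 and Nt5e, which had the highest log2 fold changes of the 8 genes, are shown first. RefSeq (GRCm38.p6) gave a window from 250 bases before to 50 bases after each start, 13 windows for 7 of the 8 genes, with no entry for Ampd1. Ampd3 has 3 annotated starts, all on the plus strand, in the windows chr7:110768372-110768671, chr7:110772354-110772653 and chr7:110773386-110773685, and Nt5e has 1, also on the plus strand, at chr9:88327359-88327658. Capitals mark CG dinucleotides.
Ampd3 start 1: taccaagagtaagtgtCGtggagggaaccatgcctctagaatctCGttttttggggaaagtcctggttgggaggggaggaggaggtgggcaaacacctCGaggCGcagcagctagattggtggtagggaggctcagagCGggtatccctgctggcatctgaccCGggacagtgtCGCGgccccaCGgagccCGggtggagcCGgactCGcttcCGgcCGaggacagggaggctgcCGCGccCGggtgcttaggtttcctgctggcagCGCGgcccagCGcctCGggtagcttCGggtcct
Ampd3 start 2: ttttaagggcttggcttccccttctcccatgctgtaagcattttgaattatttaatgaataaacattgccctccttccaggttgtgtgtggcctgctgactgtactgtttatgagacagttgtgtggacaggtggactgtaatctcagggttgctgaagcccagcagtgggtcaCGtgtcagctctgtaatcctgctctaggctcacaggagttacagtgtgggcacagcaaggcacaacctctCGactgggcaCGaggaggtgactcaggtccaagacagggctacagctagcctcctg
Ampd3 start 3: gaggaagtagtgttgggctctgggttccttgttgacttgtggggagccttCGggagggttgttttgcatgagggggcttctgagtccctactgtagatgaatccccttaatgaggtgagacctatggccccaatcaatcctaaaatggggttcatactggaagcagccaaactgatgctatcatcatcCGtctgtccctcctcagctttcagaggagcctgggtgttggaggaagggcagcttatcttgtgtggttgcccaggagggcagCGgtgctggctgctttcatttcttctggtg
Nt5e start: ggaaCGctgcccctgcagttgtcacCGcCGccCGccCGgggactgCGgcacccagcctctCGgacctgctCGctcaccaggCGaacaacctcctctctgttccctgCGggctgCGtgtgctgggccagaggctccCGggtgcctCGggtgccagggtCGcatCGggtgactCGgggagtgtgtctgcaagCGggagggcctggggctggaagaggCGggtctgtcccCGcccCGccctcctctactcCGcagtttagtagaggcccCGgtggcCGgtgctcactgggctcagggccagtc

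The first Ampd3 window held 22 CG dinucleotides and was 65.0% G or C, while the other two held 3 each, at 51.3% and 53.0%. The Nt5e window held 23 at 71.0%. The median of the 32851 windows in the table was 7 CG dinucleotides and 52.7% G or C. The counts do not tell which Ampd3 start was used.

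Letters of known binding motifs were searched on both strands of the 13 windows. The hexamer AGAACA, which binds 1 subunit of the glucocorticoid receptor dimer, lay in 1 window, that of Adssl1, against 19.0% of all windows. The full site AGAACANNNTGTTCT, which contains that hexamer, lay in none, nor did a form with at most 2 of its 12 fixed bases changed. These had shares of 0.00913% and 1.84% among all windows. The E-box CAGCTG, a motif of myogenic factors, lay in 2 windows, both of Ak1, against 16.3%. TATAAA lay in 1 of these Ak1 windows, against 13.6%, at 21 to 26 bases after the annotated start and not before it. A missing match says only that these letters are not in this short window.

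The libraries differed in depth and make-up. They held between 19631435 (vehicle replicate 1) and 88596296 counts (dexamethasone replicate 2), so that 1 count was worth 0.0536 CPM in the first and 0.0107 CPM in the second, where CPM are counts scaled with TMM factors to a common library total. All 10 myotube markers, among them Ttn, Acta1 and Ckm, were detected in every library, and their summed level was 128938 and 45704 CPM in vehicle replicates 1 and 2 and 124279 and 44630 CPM in dexamethasone replicates 1 and 2. Most of that sum was Ttn, at 118127 and 41070 CPM in vehicle and 113355 and 39943 CPM after dexamethasone. Mymk hardly differed by replicate number (176 and 173 CPM in vehicle, 208 and 208 after dexamethasone) and Tnnt3 differed little. Myh3, Neb, Acta1, Ckm, Des, Myog and Actn2 were clearly higher in replicate 1. Markers of macrophages, endothelium, adipocytes and Schwann cells summed to at most 5.78 CPM in any library. The 3 neuronal markers Rbfox3, Snap25 and Syt1 summed to 23.3 CPM in vehicle replicate 1 and to at most 0.434 CPM in the others. Values without vehicle replicate 1 are given beside those of the 8 genes. The 5 markers of cycling myoblasts summed to 53.1 and 56.9 CPM in vehicle and to 38.3 and 44.3 CPM after dexamethasone, so the groups did not overlap. Pax7, a factor of muscle stem cells, was the largest part of that sum in every library. It had 32.0 and 39.0 CPM in vehicle and 17.9 and 22.9 CPM after dexamethasone. The other markers of that list (Mki67, Top2a, Ccnb1 and Myf5) overlapped between the groups. The part of these markers in the results was not tested. Fkbp5 and Pdk4, established glucocorticoid target genes, were far higher after dexamethasone, Fkbp5 by a log2 fold change of 5.32 and Pdk4 by one of 3.11.

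The levels of the 8 genes in vehicle were ordered per kilobase of exon, with lengths from GENCODE M21. Adss, the adenylosuccinate synthase of most tissues, was the highest, at 18.2 ± 2.03 (SD, n = 2) CPM per kb. It was followed by Ak1, the cytosolic adenylate kinase of muscle, at 13.5 ± 2.91, and by Adssl1, the muscle-type synthase, at 12.2 ± 3.08. Ak1 and Adssl1 overlapped between libraries, so their order is within the spread. Adsl, the lyase that acts in the cycle and in purine synthesis, stood at 8.22 ± 0.199. The deaminases were lower, with Ampd2 at 5.55 ± 0.830, Ampd3 at 4.23 ± 0.555 and Ampd1 at 2.67 ± 1.60. Nt5e was the lowest at 0.327 ± 0.155. Apart from Ak1 and Adssl1, the library values of neighbours in this order did not overlap, though the lowest Ampd3 value (3.84) was close to the highest Ampd1 value (3.79).

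The order depended on which length was used. Per kilobase of the whole gene, introns included, Ak1 stood first at 2.64 ± 0.567 CPM per kb, then Adss at 2.46 ± 0.274, Ampd2 at 2.30 ± 0.345, Adsl at 2.06 ± 0.050 and Adssl1 at 1.19 ± 0.302. Ampd3 (0.539 ± 0.0707), Ampd1 (0.368 ± 0.220) and Nt5e (0.0627 ± 0.0297) kept the last places (SD, n = 2 throughout). Of neighbours in this order, Ak1 and Adss, Adss and Ampd2, Ampd2 and Adsl, and Ampd3 and Ampd1 overlapped between libraries. In chromatin RNA part of the signal can come from introns, and whether intronic reads were counted is not given in the sources used here.

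After dexamethasone the place of Ampd3 in that order was different. It stood at 16.9 ± 0.269 CPM per kb of exon, between Adss (19.3 ± 2.54) and Ak1 (13.98 ± 4.19; SD, n = 2 each). Its library values of 17.1 and 16.7 lay below those of Adss, 21.1 and 17.5, and overlapped those of Ak1, 16.9 and 11.0. The other members kept their vehicle order.

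**Figure D1:**
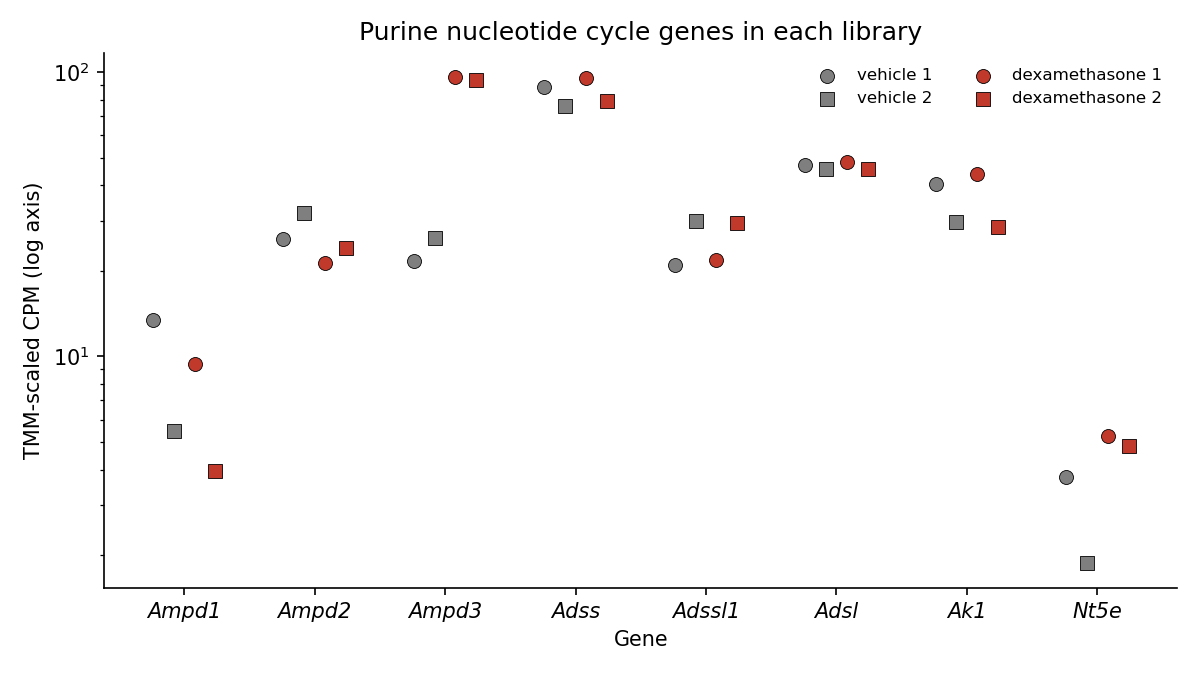
Level of the 8 purine cycle genes in each library, as TMM-scaled CPM on a log axis; grey marks vehicle, red dexamethasone, circles replicate 1 and squares replicate 2. Ampd3 lies at 21.6 and 26.0 in vehicle and at 96.1 and 93.9 after dexamethasone, while Adsl lies between 45.5 and 48.2 in all libraries.

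The design compares dexamethasone with vehicle and so asks which genes differ in chromatin-bound RNA after 2 h of glucocorticoid exposure. It measures the level of that RNA and not a rate of transcription. Among the 3 AMP deaminases, Ampd3 was higher in both treated libraries, Ampd2 was slightly lower in both, and Ampd1 overlapped between the groups. Ampd3 (ENSMUSG00000005686), the deaminase first described in red blood cells and also present in muscle, had 403 and 988 counts in vehicle replicates 1 and 2, and 2880 and 8772 in dexamethasone replicates 1 and 2. Scaled, these were 21.6 and 26.0 CPM against 96.1 and 93.9 CPM. Both dexamethasone libraries lay far above both vehicle libraries, and the libraries of each group lay close together. The means were 23.8 ± 3.12 and 95.0 ± 1.51 CPM (SD, n = 2 each). The fitted difference was 1.99 on the log2 scale (SE 0.153), or 3.98-fold. Within replicate 1 the log2 difference was 2.15 and within replicate 2 it was 1.85. In bulk RNA, a change in the number of cells that transcribe a gene and a change in RNA per cell cannot be told apart.

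Ampd3 ranked 79 of 13285 by log2 fold change, above 99.4% of tested features. Leaving out each library in turn gave 1.87 (without vehicle replicate 1) to 2.14 (without vehicle replicate 2). Its annotated exons share 195 bases with Rnf141, a gene of the opposite strand that overlaps its 3′ end, and 196 with B430319F04Rik, also of the opposite strand. They share 83 with Gm47282, an annotated miRNA gene of the same strand, which a strand setting would not separate. Introns included, the overlap with Rnf141 is far longer (a gap of -12.0 kb), where the Ampd3 gene spans 44.2 kb. Rnf141 had 22.1 and 22.2 CPM in vehicle and 29.6 and 29.6 CPM after dexamethasone, a log2 fold change of 0.42 (SE 0.134). Whether counting kept the strands apart or took in introns is not given in the sources used here, and the part of Rnf141 reads in Ampd3 was not tested.

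Ampd2 (ENSMUSG00000027889), the deaminase of most non-muscle tissues, had 483 and 1216 counts in vehicle and 637 and 2256 after dexamethasone. These were 25.9 and 32.0 CPM against 21.3 and 24.2 CPM. Neither dexamethasone library reached a vehicle library, but the margin was narrow (24.2 against 25.9), less than the distance between the vehicle libraries. The log2 fold change was -0.35 (SE 0.179), with -0.29 within replicate 1 and -0.41 within replicate 2. It ran from -0.50 (without vehicle replicate 1) to -0.18 (without vehicle replicate 2) when single libraries were left out. An annotated antisense gene shares 434 exonic bases with Ampd2, and its reads could not be told apart without strand.

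Ampd1 (ENSMUSG00000070385), the deaminase of adult skeletal muscle fibres, had 251 and 207 counts in vehicle and 282 and 370 after dexamethasone. On the CPM scale the values were 13.5 and 5.46 against 9.41 and 3.96. The groups overlapped, since in each group replicate 1 was far above replicate 2. The log2 fold change was -0.50 (SE 0.619), and it was -0.52 within replicate 1 and -0.46 within replicate 2. It turned positive without vehicle replicate 1 (0.28) and was 0.0057 without dexamethasone replicate 2, which leaves the replicate numbers unbalanced between groups.

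The make-up of the deaminase family was read from counts within each library, which no scaling between libraries affects. In vehicle, Ampd2 held the most counts of the family, 42.5% (95% Wilson interval 39.6% to 45.4%) in replicate 1 and 50.4% (48.4% to 52.4%) in replicate 2. Ampd3 held 35.4% (32.7% to 38.3%) and 41.0% (39.0% to 43.0%). After dexamethasone Ampd3 held 75.8% (74.4% to 77.1%) and 77.0% (76.2% to 77.7%). Ampd1 held 22.1% and 8.59% in vehicle and 7.42% and 3.25% after dexamethasone. By counts Ampd3 was thus second in the family in vehicle and first after dexamethasone, in both replicates. Per kilobase of exon its share was 30.5% and 37.6% in vehicle and 71.8% and 74.4% after dexamethasone. Per kilobase of the whole gene, Ampd3 lay below Ampd1 in vehicle replicate 1 (0.489 against 0.524 CPM per kb) and above it in replicate 2 (0.589 against 0.212). On that length Ampd3 was still first after dexamethasone, by less, at 2.17 and 2.13 against 1.69 and 1.92 for Ampd2. The intervals cover counting error only, as the reads carry no molecular identifiers.

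**Figure D2:**
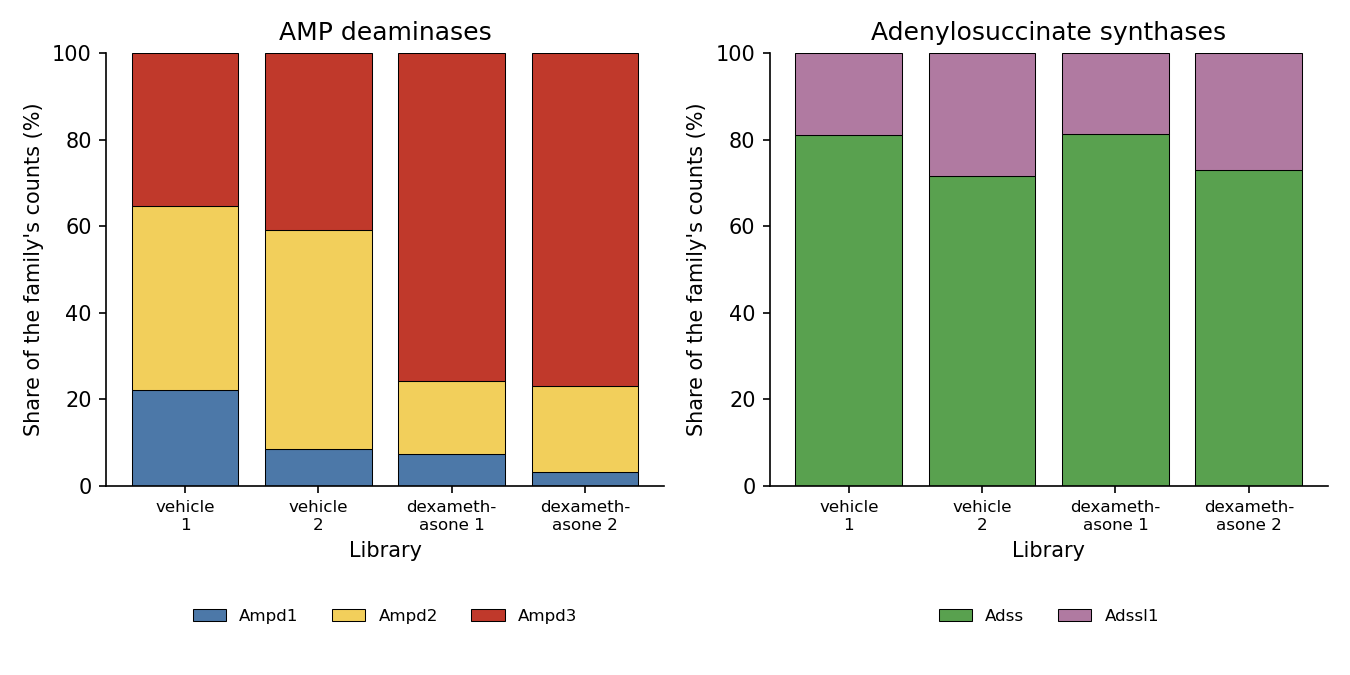
Share of each gene in the counts of its enzyme family, in percent, for each of the 4 libraries; AMP deaminases on the left and adenylosuccinate synthases on the right. Ampd3 fills 35.4% and 41.0% of the deaminase counts in vehicle and 75.8% and 77.0% after dexamethasone, while the synthase shares differ by replicate number.

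The enzymes that return IMP to AMP had near equal means in both groups. Adss (ENSMUSG00000015961) had 89.0 and 76.0 CPM in vehicle and 95.4 and 79.2 CPM after dexamethasone, a log2 fold change of 0.08 (SE 0.163). Adssl1 (ENSMUSG00000011148) had 20.9 and 30.0 CPM against 21.9 and 29.4 CPM, a log2 fold change of 0.01 (SE 0.259). Adsl (ENSMUSG00000022407) had 47.1 and 45.5 CPM against 48.2 and 45.6 CPM, a log2 fold change of 0.02 (SE 0.126). The groups overlapped in all 3 genes. Their within-replicate differences lay between -0.03 and 0.10, and for Adssl1 and Adsl the sign turned with the scaling between libraries. Without vehicle replicate 1 the log2 fold changes of Adss, Adssl1 and Adsl were 0.20, -0.23 and 0.04.

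The shares of the synthases went with the replicate number. Adss held 81.0% (95% Wilson interval 79.2% to 82.6%) and 81.4% (80.1% to 82.6%) of the counts of both synthases in vehicle and dexamethasone replicate 1. In replicate 2 it held 71.7% (70.3% to 73.1%) and 72.9% (72.1% to 73.8%). Adssl1 held the rest.

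Ak1 (ENSMUSG00000026817), which equilibrates AMP, ADP and ATP, had 40.4 and 29.8 CPM in vehicle and 43.9 and 28.6 CPM after dexamethasone. The groups overlapped, and the log2 fold change was 0.05 (SE 0.283), 0.12 within replicate 1 and -0.06 within replicate 2. It was 0.28 without vehicle replicate 1. Nt5e (ENSMUSG00000032420) had few counts, 70 and 71 in vehicle and 157 and 451 after dexamethasone. These were 3.76 and 1.87 CPM against 5.24 and 4.83 CPM. The dexamethasone values were the 2 highest, with a wide gap between the vehicle libraries themselves. The log2 fold change was 0.86 (SE 0.397), 0.48 within replicate 1 and 1.35 within replicate 2. It was 1.43 without vehicle replicate 1, the library with neuronal marker counts, and 0.43 without vehicle replicate 2.

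**Figure D3:**
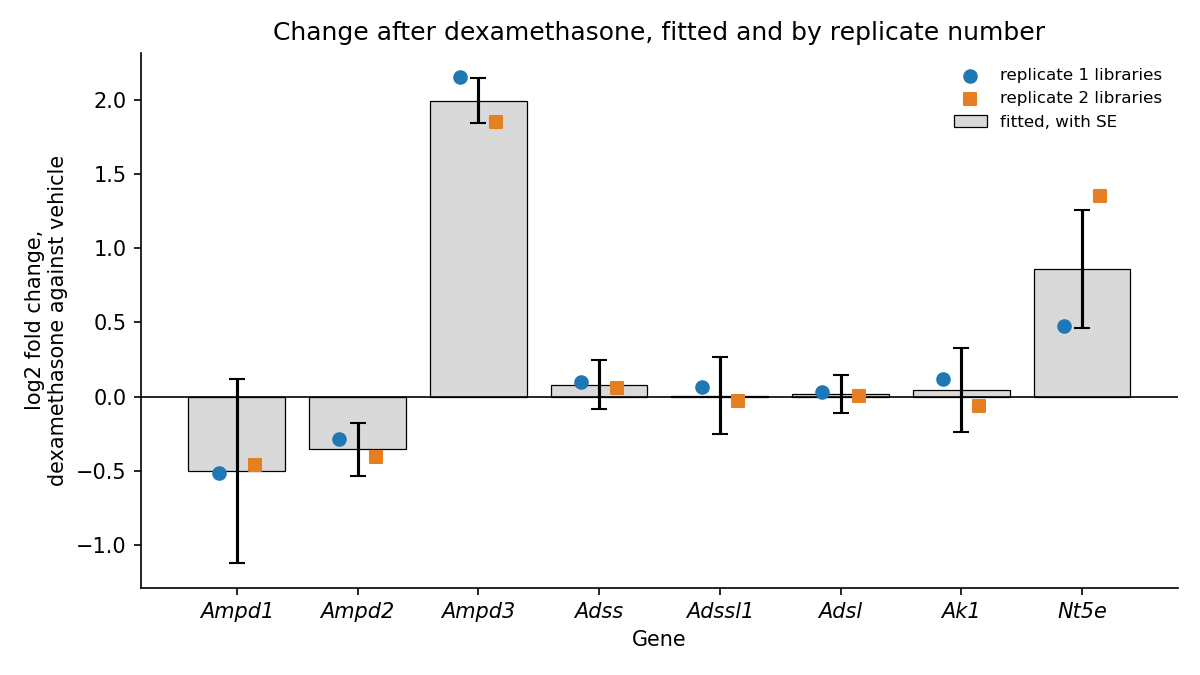
Log2 fold change of dexamethasone against vehicle for the 8 genes; bars are fitted values with their standard error, circles and squares the difference within replicate 1 and within replicate 2. Ampd3 stands at 1.99 and Nt5e at 0.86, and Adss, Adssl1, Adsl and Ak1 lie between 0.01 and 0.08.

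With edgeR's quasi-likelihood test over all features (two-sided, Benjamini-Hochberg adjusted p under 0.05), 0 of the 8 genes were called, beside 0.0376% of all tested features called higher and 0% called lower. At an unadjusted p under 0.05, 1 of them, Ampd3, was higher and 0 were lower, beside 4.09% and 1.69% of all features. DESeq2's Wald test called 1 of 8 higher, again Ampd3, and 0 lower, where it called 1.78% and 0.399% of all features. The likelihood ratio test of edgeR likewise called Ampd3 (1.83% of features higher and 0.339% lower), as did the quasi-likelihood test on every feature with at least 1 count (0.129% higher). limma-voom called 0 of the 8 and 0% of all features, with Ampd3 and Nt5e higher at an unadjusted p under 0.05, beside 4.06% of all features. A fit with a replicate block called 2 genes higher (Ampd3 and Nt5e; 6.87% of all features) and 2 lower (Ampd1 and Ampd2; 5.78%), with 1 residual degree of freedom left. Libraries of the groups did not overlap in 3 of the 8, with Ampd3 and Nt5e higher (15% of all features) and Ampd2 lower (12.9%). The choice of these genes used this contrast, so nothing is read from these counts. The median log2 fold change of the 8 was 0.03 and that of all features -0.00159.

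The difference between replicate numbers, which the choice of genes did not use, was large in some members. Both replicate 1 libraries exceeded both replicate 2 libraries in 4 of the 8 genes (Ampd1, Adss, Adsl and Ak1), beside 31.8% of all features, and lay below them in Adssl1, beside 32.1%. Ampd1 was higher in replicate 1 by 1.30 on the log2 scale in vehicle and by 1.24 after dexamethasone. Ak1 was higher there by 0.44 and 0.62, and Adss by 0.23 and 0.27. Adssl1 was lower there by similar amounts in both groups, at -0.52 and -0.43. Ckm, the muscle creatine kinase, had 53.6 and 6.98 CPM in vehicle replicates 1 and 2 and 50.6 and 7.72 CPM in the dexamethasone ones. Ampd1, Ak1 and Adss thus went with the summed myotube markers, a sum that was mostly Ttn, and Adssl1 the other way. Single markers varied in this, as Ckm differed strongly by replicate number and Mymk hardly. The part of these markers in any of the differences was not tested. Adsl differed by at most 0.08 between replicate numbers. Nt5e was higher in vehicle replicate 1 by 0.99 but by only 0.12 in dexamethasone replicate 1.

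**Figure D4:**
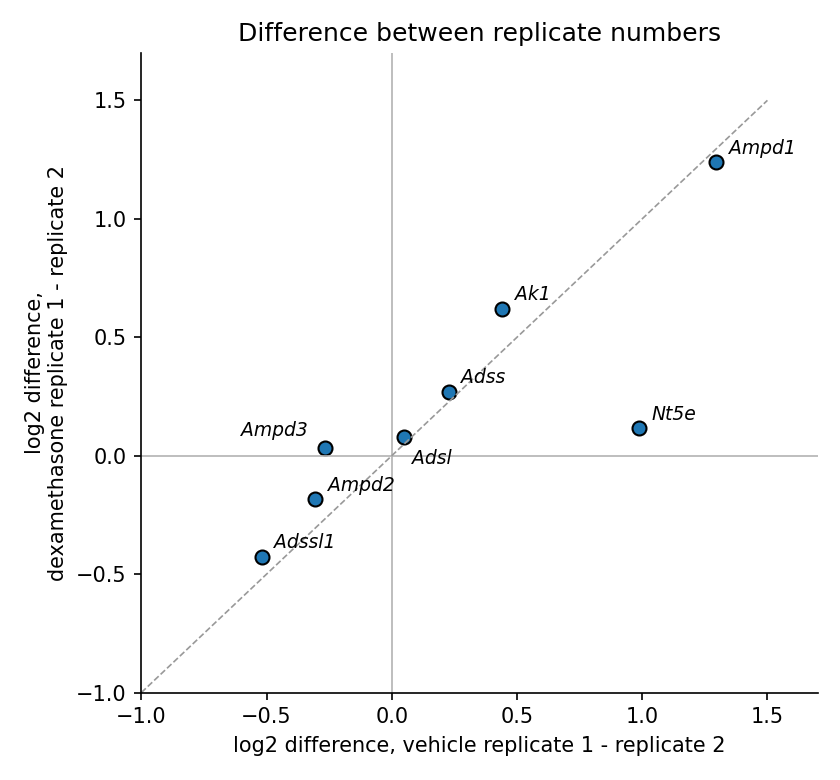
Log2 difference of replicate 1 from replicate 2 in vehicle (horizontal) and after dexamethasone (vertical) for the 8 genes; the dashed line marks equal differences. Ampd1 lies at 1.30 and 1.24 and Adssl1 at -0.52 and -0.43, near the line, whereas Nt5e lies off it at 0.99 and 0.12.

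Genes around the cycle were described through 6 lists of 81 genes, of which 79 were in the table by these names and 70 were tested. With edgeR's quasi-likelihood test 0 of the 70 passed in either direction. At an unadjusted p under 0.05, 5 were higher and 1 was lower, beside 4.09% and 1.69% of all features. The groups did not overlap in 9 of the 70 that were higher and 8 that were lower, beside 15% and 12.9% of all features. DESeq2's Wald test and edgeR's likelihood ratio test each called Prps2 and Xdh higher and 0 lower, beside 1.78% and 1.83% of all features called higher. The block called 8 higher (Hprt, Gda, Xdh, Prps1, Prps2, Enpp1, Enpp3 and Slc25a13) and 1 lower (Ak5), beside 6.87% and 5.78% of all features. In all, 31 had a positive and 39 a negative log2 fold change, with a median of -0.02, beside 6601 positive and 6684 negative of all features. The medians of the single lists rest on few genes with small changes and moved when 1 library was left out. Without vehicle replicate 1 they were 0.02 for de novo synthesis, 0.07 for salvage and breakdown, 0.02 for the other adenylate kinases, -0.17 for extracellular purines, 0.0042 for the AMP-activated kinase and creatine, and 0.26 for aspartate and fumarate exchange. Over the 4 libraries left out in turn, the median of de novo synthesis stayed positive and that of each other list turned sign at least once. The widest range was that of the other adenylate kinases, from -0.70 (without dexamethasone replicate 1) to 0.02.

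De novo synthesis builds IMP from phosphoribosyl pyrophosphate. Of 12 genes, all tested, 7 had a positive and 5 a negative log2 fold change, with a median of 0.08. Prps2, which makes that precursor, had 3.65 and 4.14 CPM in vehicle and 14.7 and 12.8 CPM after dexamethasone, a log2 fold change of 1.82 (SE 0.199). Its groups lay well apart, though the naming rule already required that they not overlap. The next by the naming rule was Prpsap1, an associated regulatory protein, at 0.11 (SE 0.141). Without vehicle replicate 1 these were 1.74 and 0.0037.

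Adenosine, IMP and free bases are handled by the enzymes of salvage and breakdown. Of 19 genes 15 were tested, 7 positive and 8 negative, with a median of -0.03. Xdh, whose product oxidises hypoxanthine and xanthine to uric acid, had 4.08 and 4.22 CPM in vehicle and 12.8 and 10.0 CPM after dexamethasone, a log2 fold change of 1.46 (SE 0.218). Gda, guanine deaminase, had 10 and 15 counts in vehicle and 47 and 119 after dexamethasone, a log2 fold change of 1.62 (SE 0.395). In both genes the dexamethasone libraries lay above the vehicle libraries, as the naming rule required. Without vehicle replicate 1 the log2 fold changes of Xdh and Gda were 1.43 and 1.83. Nt5c2, Ak3 and Got1 are listed at 0 in every library. Ak3 and Got1 are genes that most cells use, so a listed 0 is not read as a level here.

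Among the other adenylate kinases 5 of 8 were tested, 2 positive and 3 negative, with a median of -0.16. Ak5 had 12.6 and 9.78 CPM in vehicle and 6.41 and 6.82 CPM after dexamethasone, a log2 fold change of -0.75 (SE 0.210). Ak4, a mitochondrial member, was at -0.44 (SE 0.362). In each the dexamethasone values were the lowest 2, as the naming rule required. Without vehicle replicate 1, the library with neuronal marker counts, the log2 fold changes of Ak5 and Ak4 were -0.56 and -0.40.

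The list called extracellular purines held 18 genes, of which 16 were tested, 5 positive and 11 negative, with a median of -0.06. Whether each product, that of Entpd4 among them, acts outside or inside the cell was not examined. Enpp3, an ecto-enzyme that cleaves nucleotides to AMP, had 6.81 and 5.30 CPM in vehicle and 9.64 and 9.40 CPM after dexamethasone, a log2 fold change of 0.66 (SE 0.213). Adora2b, a receptor for adenosine, had 2.41 and 2.53 CPM in vehicle and 1.30 and 1.62 CPM after dexamethasone, a log2 fold change of -0.75 (SE 0.297). Entpd3, which degrades extracellular nucleotides, was at -0.58 (SE 0.335), and Entpd4 at 0.10 (SE 0.130). Entpd2, at -1.60, had 4 counts in dexamethasone replicate 1 and at most 41 in any library.

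The kinase that senses AMP and the creatine system, which buffers ATP, gave 14 tested of 15 genes, 4 positive and 10 negative, with a median of -0.09. The kinase subunits Prkag2, Prkab1 and Prkag1 were at 0.08 (SE 0.136), -0.28 (SE 0.186) and -0.15 (SE 0.125). Of 9 genes that exchange aspartate and fumarate with the cycle 8 were tested, 6 positive and 2 negative, with a median of 0.04. Slc25a13, a mitochondrial aspartate and glutamate carrier, had 4.13 and 5.01 CPM in vehicle and 6.91 and 6.80 CPM after dexamethasone, a log2 fold change of 0.58 (SE 0.214). Glud1, glutamate dehydrogenase, was at -0.12 (SE 0.117).

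**Figure D5:**
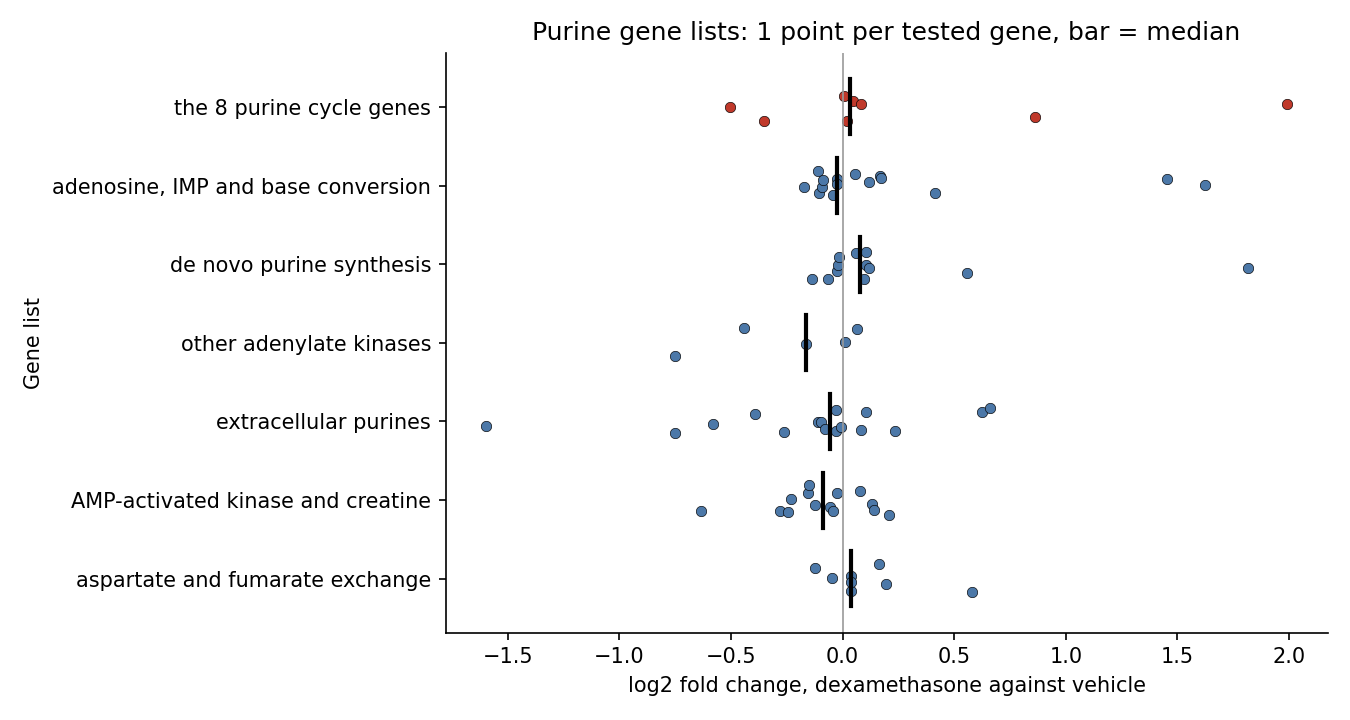
Log2 fold change of dexamethasone against vehicle for the 8 purine cycle genes (red) and the tested genes of 6 surrounding lists (blue); each point is a gene, its height within a list has no meaning, and the bar is the median. The medians lie between -0.16 and 0.08, with Ampd3 (1.99), Prps2 (1.82), Gda (1.62) and Xdh (1.46) as the points farthest to the right.

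The features whose pattern over the 4 libraries was most like that of Ampd3 were found from log2 CPM values centred on each gene's mean, by Euclidean distance. The 5 nearest were Ly6a (distance 0.0377), one of a family of similar genes, Map3k6 (0.0886), Ehd3 (0.0988), Slc39a14 (0.124) and Prkar2b (0.144), the last a regulatory subunit of protein kinase A. Slc39a14, a zinc and iron transporter, had 80.8 and 98.3 CPM in vehicle and 331 and 324 CPM after dexamethasone. Prkar2b, close to Ampd3 in level too, had 21.0 and 26.2 CPM against 104 and 103 CPM. The log2 fold changes of the 5 lay between 1.87 and 2.13, which follows from the search, since it used these same libraries. This likeness rests on 4 libraries and is a description.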

How the data were processed

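Chromatin-bound nuclear RNA of 4 libraries was measured. The deposited table holds raw read counts per gene, which were used as deposited. Per the submitters' processing notes the tools were TopHat2 2.0.13, SAMtools 1.1, HTSeq 0.6.1 and DESeq2 1.18.1, with the build mm9. The annotation and strand setting are not given in the sources used here. The labels name both a total RNA and an mRNA kit.

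Of 23333 rows, 51 repeated a gene with all its counts and were used once. Features were filtered with filterByExpr (minimum count 10, minimum total 15), scaled by TMM and compared between groups by the quasi-likelihood test of edgeR 4.0.16 (R 4.3.3), in a model without a replicate term. The SE is the log2 fold change divided by the root of the test statistic, and differences within a replicate number use log2 CPM with a prior count of 2. limma 3.58.1 and DESeq2 1.42.0 served as alternatives. All tests were also run on simulated counts with the same dispersion for every gene and no replicate effect. That run cannot show how the tests handle the replicate differences of these libraries. Exon lengths came from GENCODE M21 (GRCm38) by Ensembl identifier, and promoters from RefSeq. No coordinates of these builds were joined to the counts.

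The genes and lists were chosen with earlier results of these data known. Of list genes, up to 2 per direction are named, those with the largest change among genes whose groups do not overlap and whose higher group has 20 or more counts per library, plus any called or singled out. Hprt, Prps1, Enpp1, Entpd2, Nt5c2, Ak3, Got1, Rnf141, Adm, Kif26a and Pax7 were named after their values were seen.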

Additional observations from a re-analysis of the deposited data

How the results depend on the processing

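The number of features called was 5 higher and 0 lower with edgeR's quasi-likelihood test. It was 23 higher without a filter beyond 1 count, 236 higher and 53 lower with DESeq2's Wald test, 243 and 45 with the likelihood ratio test, and 0 higher with limma-voom. Without one library each it ran from 4 (without vehicle replicate 1) to 84 (without vehicle replicate 2) higher and from 0 to 109 lower; these tests, chosen after seeing the data since only fold changes were planned, have 1 residual degree of freedom and assume that the lone library varies like the other group. The cause was not tested. With the replicate number as a block 913 were higher and 768 lower. The labels do not say that a number marks a shared culture or day, and only 2 pairs exist; replicate differences correlated between the groups across 13285 genes (r = 0.734). Ampd3 passed the threshold without the filter, with DESeq2, with the likelihood ratio test, with the block and without vehicle replicate 2. Ampd1, Ampd2 and Nt5e passed with the block alone. Near zero, signs turned. Adsl was at -0.0090 with upper quartile scaling and -0.0209 by library size only. Adssl1 was at -0.0058 with DESeq2 size factors, -0.0193 with upper quartile scaling, -0.0329 by library size only and -0.0057 with DESeq2's Wald test. Without one library each, Ampd1 ran from -1.23 to 0.28, Adsl from -0.0152 to 0.0567, Adss from -0.0537 to 0.21, Adssl1 from -0.23 to 0.30 and Ak1 from -0.29 to 0.33, while Ampd3, Ampd2 and Nt5e kept their sign and Ampd2 ran from -0.50 to -0.18. Depth limits Nt5e most, with 70 counts in vehicle replicate 1.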

Other observations

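Of the 2 tested neighbours on each side of the 8 genes along the chromosome, in the order of GENCODE M21, Adm lies next before Ampd3 at a distance of 138 kb. Adm encodes adrenomedullin, a vasodilator peptide. It had 5 and 15 counts in vehicle and 61 and 91 after dexamethasone, a log2 fold change of 2.11 (SE 0.564), with both dexamethasone libraries above both vehicle libraries. The difference was 2.73 within replicate 1 and 1.21 within replicate 2. The next gene farther out, Sbf2, was at 0.28 (SE 0.146). The largest change among these neighbours was that of Kif26a, which lies 438 kb before Adssl1 as the next gene but one. It had 22 and 50 counts in vehicle and 6 and 13 after dexamethasone, a log2 fold change of -2.93 (SE 0.435), with both dexamethasone libraries below both vehicle libraries. The other neighbours, apart from Adm, lay between -0.42 and 0.71.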
